A study of Mus musculus with 9 samples.

Results

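The genes described here encode Wnt ligands, their receptors and co-receptors, the secreted proteins that restrain or amplify them, and a few transcription factors and feedback genes of the same pathway. They were chosen by symbol from the gene counts of mouse ear epidermis, namely every symbol that begins with Wnt, Fzd, Dkk, Sfrp or Rspo followed by a digit, Lgr4, Lgr5 and Lgr6, and 10 further genes (Wif1, Lrp5, Lrp6, Axin2, Lef1, Tcf7, Tcf7l1, Tcf7l2, Notum and Nkd2). This gave 55 of the 52550 genes in the table, 1 of them the antisense transcript Rspo4os. Total RNA came from intact epidermal sheets of the ears of wild type C57BL/6 mice (C57BL/6J in the paper) aged 8 weeks, in 3 groups of 3 libraries. Control mice (VAS + H2O) had Vaseline on the skin for 5 days and water by gavage for 10 days. Model mice (IMQ + H2O) had imiquimod, a Toll-like receptor agonist that causes psoriasis-like skin inflammation, in place of Vaseline, and the same water. The third group (IMQ + XYF) had imiquimod and, by gavage for 10 days, the herbal decoction Xiao-Yin-Fang (XYF) at 23.3 mg/g.

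Wnt proteins are lipid-modified signals that cells secrete and that act mostly on near neighbours. They bind a Frizzled receptor together with the co-receptor LRP5 or LRP6, which keeps beta-catenin from being degraded, so that it enters the nucleus and acts with TCF and LEF proteins on target genes such as Axin2. In skin this pathway is known for its part in hair follicle formation and cycling and in the upkeep of basal keratinocytes, while secreted inhibitors such as WIF1, the DKK and SFRP proteins and NOTUM limit its reach.

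Total counts were 44681447, 31034401 and 34689174 in VAS + H2O, 30298275, 39617029 and 43815369 in IMQ + H2O, and 64771160, 33208358 and 34913386 in IMQ + XYF, in the order of the replicate numbers, which is kept below. Levels are given as CPM, the counts per 1e6 counts of a library after TMM scaling. Taking 3 counts as the floor, a gene could be seen from 0.0471 CPM in the deepest library and from 0.104 in the shallowest, for counting error only. Keratinocyte genes defined the tissue, since all 15 genes of a keratinocyte list were above this floor in all 9 libraries, with summed levels of 53900 to 77500 CPM and Krt10 as the most abundant. A pair of libraries stood apart by muscle genes, and another library by its spread. VAS + H2O replicate 2 had 293 CPM summed over 8 skeletal muscle genes, against 6.60 and 8.40 in the other VAS + H2O libraries, and IMQ + XYF replicate 2 had 81.0 CPM, against 18.4 and 5.73. The sum of 13 dermal fibroblast genes was also highest in VAS + H2O replicate 2 within its group, at 832 CPM against 213 and 291. In IMQ + XYF replicate 2 it was 939 CPM, of which Postn alone made up 744, and 10 of the other genes were higher in replicate 1, so this list does not set that library apart. The library apart by its spread was IMQ + H2O replicate 3, whose chi-square per gene was 75.0 and 70.9 against its group mates, which had 23.8 between themselves. Its 4 neutrophil genes summed to 135 CPM against 49.4 and 51.7. Cxcr2 led this list, with a mean of 42.9 CPM over the 9 libraries. The same library was the lowest of its group for 26 of the 40 Wnt genes tested in IMQ + H2O and the highest for 3. The edgeR values of Wnt genes that move most with these libraries are given with and without them, and the marker lists and the DESeq2 calls in IMQ + H2O were not refitted without them.

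Compared per kilobase of exon, the most abundant Wnt gene was Wif1, whose mean over the 9 libraries was 50.4 CPM per kb. That mean pools controls at 88.7, IMQ + H2O at 15.0 and IMQ + XYF at 47.4, and within IMQ + H2O Wif1 came after 6 others, with Wnt4 (29.2) first. Among ligands, Wnt4 (28.2 CPM per kb) and Wnt7b (19.7) came first. Frizzled receptors were led by Fzd10 (19.5) and Fzd6 (17.8), in the reverse order within IMQ + H2O (18.3 and 18.6), the co-receptors by Lrp5 (20.2, against 6.93 for Lrp6), and the receptors for R-spondins by Lgr6 (11.0) and Lgr4 (8.00). After Wif1, the secreted inhibitors Sfrp1 and, named after its values were seen, Dkk3 shared a mean of 14.8 CPM per kb, with Dkk3 above in VAS + H2O (18.2 against 14.1) and below in IMQ + H2O (11.1 against 14.7). Tcf7 (7.14) was the most abundant of the TCF and LEF genes, followed by Tcf7l2 (1.88). R-spondins were scarce, and Rspo3, the first of them, had a mean of 0.399 CPM per kb, followed by Rspo1 with 0.0759. Counts were 0 in all 9 libraries for Wnt2, Wnt8a and Dkk1, which the floor limits to 0.104 CPM in the shallowest library, and no library had more than 3 counts of Wnt8b, Dkk4, Sfrp4 or Rspo4os.

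The comparison of IMQ + H2O with VAS + H2O asks what imiquimod did to these genes. Of the 55, 40 passed the low-count filter of edgeR, and 10 of the 40 (25.0%) were called lower in IMQ + H2O, with 0.05 as the limit of the adjusted p and 1 as the smallest log2 fold change in size. Over all 18009 genes tested, 4.04% were called lower, and 7.68% in either direction. Not 1 of the 40 was called higher by edgeR, where 3.64% of all genes were, and DESeq2 called 0 higher too. At an unadjusted p under 0.05 edgeR gave 23 lower and 0 higher, where 18.7% and 19.2% of all genes were. With no limit on the fold change, 14 of the 40 passed the adjusted p, all lower, where 9.41% of all genes were lower and 22.1% passed in either direction. With 1 library left out this count of 14 ran from 7 to 15, and it was 8 without VAS + H2O replicate 2. DESeq2 called 13 of 42 lower, against 4.63% of all genes by that tool, and the 3 that edgeR did not call were Fzd4 and, named after their values were seen, Sfrp2 and Wnt9a. The median log2 fold change of the 40 was -0.51, against -0.03 for all genes tested, and 33 of the 40 lay below 0 (52.4% of all genes). In 20 of the 40, every IMQ + H2O library was below every VAS + H2O library (21.6% of all genes), and in 1, Wnt10a, named after its values were seen, every one was above (23.4% of all genes). Of the 40, Rspo3 and Sfrp5 passed the filter through a single group, so each had to differ to some degree. Without VAS + H2O replicate 2, 7 of 40 genes were called, against 3.85% of all genes in either direction, and the median was -0.42. The count was also lower without IMQ + H2O replicate 1, with 6 of 41 (5.45% of all genes), and without IMQ + H2O replicate 3, with 5 of 41 (3.86%). Without the latter Wnt3, Wnt5b, Lgr6, Lef1 and Tcf7l1 lost their calls, the median was -0.44, and Wif1 (-2.39) and Fzd9 (-2.32) kept theirs. Since these are bulk samples, fewer cells of a type and less RNA per cell cannot be told apart for any gene below.

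Setting IMQ + XYF against IMQ + H2O asks whether the decoction moved the same genes. By edgeR, 0 of 40 Wnt genes were called (0.0281% of all 17793 genes tested), while 5 had an unadjusted p under 0.05 and were higher with XYF (3.84% of all genes), and 0 were lower (1.58% of all genes). These 5 were Fzd9, Wif1, Fzd4, Notum and Tcf7l1. DESeq2 called 2 higher, Fzd9 and Wif1, or 5.00% of the 40, against 0.738% of all genes by that tool, and 0 lower (0.0176% of all genes). The paper, which used DESeq2 on this experiment, already lists both as epidermal genes that differed here and between IMQ + H2O and VAS + H2O. Every IMQ + XYF library was above every IMQ + H2O library for 7 genes (5.99% of all genes), namely Fzd9, Fzd4, Lgr6, Wif1, Notum and, named after their values were seen, Fzd2 and Dkk3. Wnt4 was the 1 gene with every IMQ + XYF library below (4.67% of all genes). The median log2 fold change of the 40 was 0.10, against 0.00 for all genes, and 14 of the 40 lay below 0 (49.9% of all genes). Rspo3 and Sfrp5, counted among the 40, passed the filter through a single group here too. Without IMQ + H2O replicate 3 the median was 0.03, with 1.47 for Wif1, 1.77 for Fzd9 and 0.19 for Lgr6.

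IMQ + XYF was also set against VAS + H2O, a comparison that shares its libraries with the others, so their values below are side by side and are not independent. Here 3 of 41 genes tested were called lower by edgeR, Rspo3, Nkd2 and Wnt5b, or 7.32% against 3.05% of all 17954 genes, where 7.64% were called in either direction. None of the 41 was called higher by edgeR (4.58% of all genes), and the count was also 0 by DESeq2 (4.89%) and at an unadjusted p under 0.05 (22.0%), where 16 of the 41 were lower (19.3% of all genes). DESeq2 called 4 lower (3.03% of all genes), Lef1 being the fourth. At an adjusted p of at most 0.05 with no limit on the fold change, 10 of the 41 were lower (12.0% of all genes), while 28.7% of all genes passed in either direction. The 10 became 5 or 6 in 4 of the 6 fits with 1 library left out. The median of the 41 was -0.42, against -0.04 for all genes. Sfrp2 and Sfrp5, counted among the 41, passed the filter through a single group. Without VAS + H2O replicate 2 and IMQ + XYF replicate 2 together, an alternative chosen after seeing the data, 2 were called. Leaving out VAS + H2O replicate 1, or IMQ + XYF replicate 3, left only Rspo3 called.

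**Figure D1:**
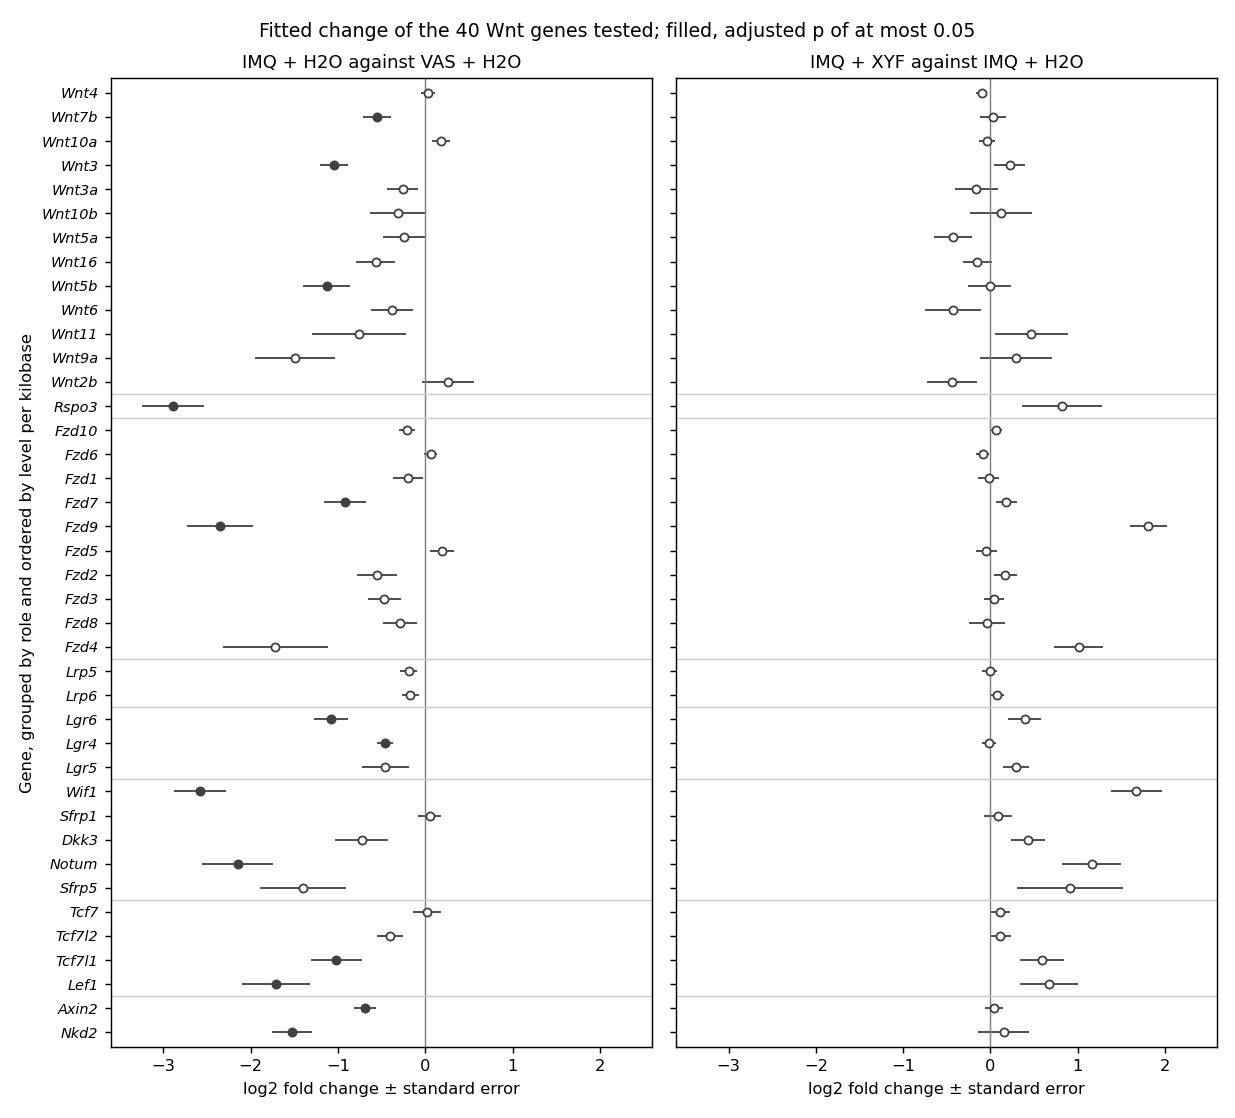
Fitted log2 fold changes (x axis) of the 40 Wnt genes tested (y axis, grouped by role) with their standard errors, on the left for IMQ + H2O against VAS + H2O and on the right for IMQ + XYF against IMQ + H2O, 3 libraries a group. Filled points have an edgeR adjusted p of at most 0.05, 14 on the left, all below 0, and 0 on the right.

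Among the 19 Wnt ligands, 13 were tested and 2 were called lower in IMQ + H2O, against 4.04% of all genes. Their median log2 fold change was -0.38, against -0.03 for all genes. Wnt3 (ENSMUSG00000000125, chr11:103774150-103817957), a ligand that acts through beta-catenin, had 40.3, 40.6 and 54.4 CPM in VAS + H2O, 21.0, 25.7 and 19.2 in IMQ + H2O, and 22.0, 32.1 and 22.5 in IMQ + XYF. All 6 imiquimod libraries were below the 3 controls, and those with and without XYF overlapped. Its log2 fold change was -1.05 (standard error 0.16, edgeR adjusted p = 0.0105) in IMQ + H2O and -0.82 (standard error 0.19, edgeR adjusted p = 0.0191) in IMQ + XYF against VAS + H2O, with 0.22 between the imiquimod groups. The call in IMQ + H2O ended without VAS + H2O replicate 3 (-0.86), IMQ + H2O replicate 1 (-0.98) or IMQ + H2O replicate 3 (-0.96), each still past the adjusted p, and the value in IMQ + XYF missed the adjusted p in 3 of 6 such fits. Wnt5b (ENSMUSG00000030170, chr6:119432531-119544347), usually placed among the ligands that do not act through beta-catenin, was far scarcer, at 3.87, 2.34 and 2.47 CPM in VAS + H2O, 1.52, 1.30 and 1.18 in IMQ + H2O, and 1.48, 1.02 and 1.43 in IMQ + XYF. Again no imiquimod library reached a control. The log2 fold changes of Wnt5b against VAS + H2O were -1.13 (standard error 0.27, edgeR adjusted p = 0.0291) in IMQ + H2O and -1.14 (standard error 0.28, edgeR adjusted p = 0.0246) in IMQ + XYF, and its call in IMQ + H2O was lost under 5 of 13 alternatives, among them leaving out VAS + H2O replicate 2 (edgeR adjusted p = 0.0529). The call in IMQ + XYF was lost under 4.

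Wnt7b (ENSMUSG00000022382, chr15:85535437-85582473), the second most abundant ligand per kilobase and a keratinocyte product, had 128, 109 and 126 CPM in VAS + H2O, 94.8, 91.0 and 63.9 in IMQ + H2O, and 83.7, 87.8 and 82.9 in IMQ + XYF. Both imiquimod groups lay below the controls, by less than the fold cutoff, with log2 fold changes of -0.55 (standard error 0.16, edgeR adjusted p = 0.0466) and -0.51 (standard error 0.08, edgeR adjusted p = 0.00513). The first did not pass in any of the 6 fits with 1 library left out (edgeR adjusted p of 0.0509 to 0.129), and the second passed in all. Wnt4 (ENSMUSG00000036856, chr4:137277489-137299726), the most abundant ligand per kilobase, stood at 128, 110 and 118 CPM in VAS + H2O, 119, 125 and 123 in IMQ + H2O and 115, 111 and 115 in IMQ + XYF. Its groups differed by log2 fold changes of 0.03, -0.10 and -0.06, none past the threshold, although the IMQ + XYF libraries were all just below those of IMQ + H2O. Wnt5a and Wnt16 passed the adjusted p only between IMQ + XYF and VAS + H2O. For Wnt5a the libraries had 10.4, 7.83 and 12.4 CPM in VAS + H2O, 9.02, 10.9 and 6.21 in IMQ + H2O and 6.87, 6.75 and 5.73 in IMQ + XYF, a log2 fold change of -0.66 (standard error 0.19, edgeR adjusted p = 0.0439) against VAS + H2O. IMQ + H2O overlapped both other groups. Wnt16 had 4.25, 6.19 and 5.88 CPM in VAS + H2O, 4.01, 4.03 and 3.08 in IMQ + H2O and 3.25, 3.58 and 3.14 in IMQ + XYF, so that all imiquimod libraries were below the controls, and its log2 fold changes against VAS + H2O were -0.57 (edgeR adjusted p = 0.105) and -0.71 (edgeR adjusted p = 0.0345). In IMQ + XYF both genes passed in only 1 of the 6 fits with 1 library left out. That 1 group passed and the other did not is not a tested difference between them. Over the other ligands tested, log2 fold changes in IMQ + H2O ran from -1.49 to 0.26, with no call by edgeR, while DESeq2 called Wnt9a, the lowest of them. Wnt9a had 1.18, 2.55 and 1.09 CPM in VAS + H2O, and 0.691, 0.364 and 0.671 in IMQ + H2O on 14 to 29 counts. How far its call rests on VAS + H2O replicate 2 was not tested.

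R-spondins raise the Wnt response by keeping Frizzled receptors on the cell surface, and of the 4 genes only Rspo3 was tested. Rspo3 (ENSMUSG00000019880, chr10:29452416-29535867) had 1.78, 3.16 and 3.16 CPM in VAS + H2O, 0.415, 0.260 and 0.417 in IMQ + H2O, and 0.739, 0.864 and 0.314 in IMQ + XYF. The controls were all above the other 6 libraries. This was the largest fitted decrease among the 40 genes in IMQ + H2O, with a log2 fold change of -2.89 (standard error 0.36, edgeR adjusted p = 0.00723), and the value in IMQ + XYF against VAS + H2O was -2.06 (standard error 0.42, edgeR adjusted p = 0.0128). Between the imiquimod groups it was 0.82 (standard error 0.46, edgeR adjusted p = 1). As few as 10 counts stood behind a library, and the call against the controls was kept in all 13 alternatives of each comparison. In IMQ + H2O against VAS + H2O, Rspo3 passed the filter through a single group. It therefore had to differ there to some degree, which limits what its rank and its kept calls show.

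LGR4, LGR5 and LGR6 are the receptors that bind R-spondins, and LGR6 is known as a marker of stem cells in the upper hair follicle. Lgr6 (ENSMUSG00000042793, chr1:134983301-135105276) had 111, 103 and 109 CPM in VAS + H2O, 64.0, 53.3 and 36.8 in IMQ + H2O, and 64.4, 70.3 and 65.6 in IMQ + XYF. The 3 groups did not overlap, with IMQ + XYF between the others and next to the highest IMQ + H2O library. Its log2 fold change was -1.08 (standard error 0.19, edgeR adjusted p = 0.0130) in IMQ + H2O and -0.69 (standard error 0.07, edgeR adjusted p = 0.00113) in IMQ + XYF against VAS + H2O, and 0.39 (standard error 0.19, edgeR adjusted p = 0.979) between the imiquimod groups. Lgr4 (ENSMUSG00000050199, chr2:109917647-110014257) moved less, from 53.7, 62.3 and 56.7 CPM to 41.4, 44.9 and 40.3 in IMQ + H2O and 43.1, 38.7 and 42.4 in IMQ + XYF. These are log2 fold changes of -0.46 (standard error 0.09, edgeR adjusted p = 0.0190) and -0.47 (standard error 0.08, edgeR adjusted p = 0.00795), with the imiquimod groups overlapping. With 1 library left out the first missed the adjusted p in 4 of 6 fits, while the call of Lgr6 in IMQ + H2O ended in 1, without IMQ + H2O replicate 3 (-0.89). For Lgr5, the third receptor, also added after its values were seen, the value in IMQ + H2O was -0.46 with an edgeR adjusted p of 0.268. Genes of the hair follicle, where LGR6 is known as a marker, summed to 119, 93.0 and 110 CPM in VAS + H2O, 67.5, 77.3 and 88.8 in IMQ + H2O and 85.0, 61.5 and 88.3 in IMQ + XYF over 12 genes. Krt75 was the most abundant and 0 of 12 were at 0 in every library. By edgeR 0 of 8 tested were called in any comparison, where 7.68% of all genes were in IMQ + H2O against VAS + H2O. The sums of both imiquimod groups lay below those of the controls. Their part in the Lgr values was not tested.

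All 10 Frizzled genes were tested, and 1, Fzd9, was called lower in IMQ + H2O, against 4.04% of all genes lower and 7.68% in either direction. Fzd9 (ENSMUSG00000049551, chr5:135248938-135251230) had 17.4, 40.2 and 15.9 CPM in VAS + H2O, 5.36, 4.60 and 4.68 in IMQ + H2O, and 22.2, 13.5 and 15.2 in IMQ + XYF. IMQ + H2O was below both other groups in every library, and IMQ + XYF overlapped the controls. The log2 fold change was -2.35 (standard error 0.38, edgeR adjusted p = 0.0116) in IMQ + H2O and 1.81 (standard error 0.21, edgeR adjusted p = 0.144) in IMQ + XYF against IMQ + H2O, where DESeq2 gave 1.81 with an adjusted p of 1.08e-11 and the adjusted p over all alternatives ran up to 0.684. VAS + H2O replicate 2 carried much of the control mean, and without it the value in IMQ + H2O was -1.78 (standard error 0.15, edgeR adjusted p = 0.0140). Against VAS + H2O, Fzd9 in IMQ + XYF was -0.53 (standard error 0.39, edgeR adjusted p = 0.348), and 0.03 without that library.

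Fzd4 (ENSMUSG00000049791, chr7:89404355-89413134), a receptor for Wnt ligands and for norrin, had the same order at a lower level. It had 2.26, 7.53 and 1.58 CPM in VAS + H2O, 1.17, 1.33 and 0.996 in IMQ + H2O, and 2.92, 2.47 and 1.60 in IMQ + XYF. Every IMQ + H2O library was below all 6 others, yet edgeR called neither change, with log2 fold changes of -1.72 (standard error 0.60, edgeR adjusted p = 0.0831) in IMQ + H2O and 1.01 (standard error 0.28, edgeR adjusted p = 0.605) with XYF. Without VAS + H2O replicate 2 the first was -0.73. Fzd7 (ENSMUSG00000041075, chr1:59482424-59486955) had 70.8, 57.2 and 35.8 CPM in VAS + H2O, 27.1, 33.6 and 27.0 in IMQ + H2O, and 33.9, 29.6 and 35.0 in IMQ + XYF. The lowest control was barely above the highest imiquimod library, and the log2 fold change was -0.92 (standard error 0.24, edgeR adjusted p = 0.0395) in IMQ + H2O. It passed in 1 of the 6 fits with 1 library left out, that without VAS + H2O replicate 3. The most abundant receptors did not follow. Fzd10 had log2 fold changes of -0.21 (edgeR adjusted p = 0.123) and 0.06 in these comparisons, and Fzd6 had 0.06 (edgeR adjusted p = 0.550) and -0.09. For the co-receptors, Lrp5 had 200, 213 and 228 CPM in VAS + H2O, 194, 205 and 167 in IMQ + H2O and 182, 186 and 191 in IMQ + XYF. Its values of -0.19 and -0.01, and those of Lrp6, -0.17 and 0.08, did not pass the test.

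**Figure D2:**
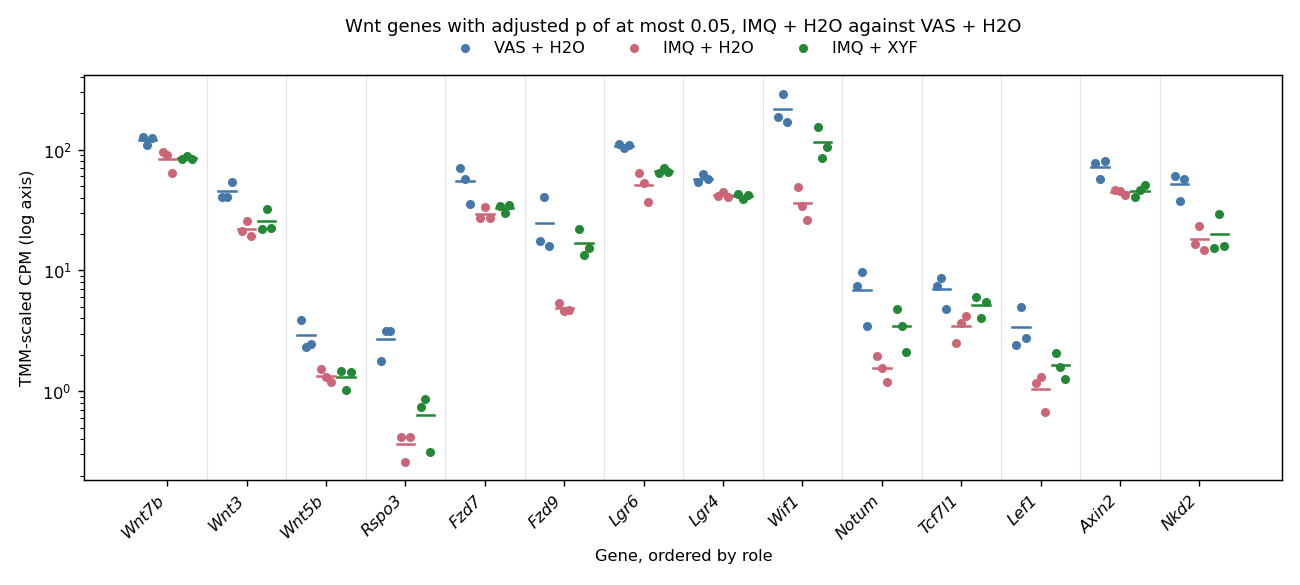
TMM-scaled CPM on a log axis for each library (points) and group means (bars) of the 14 Wnt genes with an edgeR adjusted p of at most 0.05 between IMQ + H2O and VAS + H2O, 3 libraries a group. Levels compare libraries within a gene, not genes with each other. In all 14 the IMQ + H2O points lie below the VAS + H2O points (21.6% of all genes). The 14 were chosen by this comparison, so that count was largely set by the choice. In Fzd9, Lgr6, Wif1 and Notum the IMQ + XYF points lie above those of IMQ + H2O (5.99% of all genes). That comparison uses the same IMQ + H2O libraries and is not independent of the choice.

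Secreted inhibitors keep Wnt ligands from their receptors. Of the 10 genes, 5 were tested in IMQ + H2O and 2 were called lower, against 4.04% of all genes. Wif1 (ENSMUSG00000020218, chr10:121033960-121100650), whose protein binds Wnt ligands outside the cell, had 185, 291 and 170 CPM in VAS + H2O, 48.9, 34.2 and 26.2 in IMQ + H2O, and 155, 85.0 and 105 in IMQ + XYF. The 3 groups did not overlap, with IMQ + XYF between the others. The log2 fold change of -2.58 (standard error 0.30, edgeR adjusted p = 0.00646) in IMQ + H2O kept its call in all 13 alternatives and was -2.29 (edgeR adjusted p = 0.0219) without VAS + H2O replicate 2. With XYF it was 1.67 (standard error 0.29, edgeR adjusted p = 0.347) against IMQ + H2O, where DESeq2 gave 1.66 with an adjusted p of 3.54e-07 and the adjusted p over all alternatives ran up to 0.763. Without IMQ + XYF replicate 2 the edgeR values with XYF were 1.85 for Wif1 and 1.95 for Fzd9. Against VAS + H2O, Wif1 in IMQ + XYF was -0.90 (standard error 0.28, edgeR adjusted p = 0.0527).

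Notum (ENSMUSG00000042988, chr11:120653788-120661175) encodes an enzyme that removes the lipid from Wnt ligands. Its libraries had 7.47, 9.62 and 3.47 CPM in VAS + H2O, 1.94, 1.56 and 1.20 in IMQ + H2O, and 4.78, 3.45 and 2.11 in IMQ + XYF. IMQ + H2O was the lowest in every library, and the other groups overlapped. The log2 fold change was -2.15 (standard error 0.41, edgeR adjusted p = 0.0158) in IMQ + H2O and 1.16 (standard error 0.34, edgeR adjusted p = 0.655) with XYF. Without VAS + H2O replicate 2 the first was -1.82 (edgeR adjusted p = 0.0470). Sfrp1, which binds Wnt ligands and is abundant here, did not move with them, with 64.6, 54.9 and 65.6 CPM in VAS + H2O, 54.8, 74.8 and 63.7 in IMQ + H2O and 68.2, 80.3 and 56.9 in IMQ + XYF and log2 fold changes of 0.05 and 0.09. Its groups overlapped throughout. Sfrp2, a fibroblast product that did not pass the filter in this comparison, had 5.07 CPM in VAS + H2O replicate 2 and at most 0.740 elsewhere, with 0 counts in the 3 IMQ + H2O libraries. DESeq2 called it lower in IMQ + H2O, and how far that call rests on the single library was not tested.

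Cartilage genes lay close to these values. Over 13 cartilage genes, with Acan the most abundant (110 CPM on average) and Matn1 at 0 in all 9 libraries, summed levels were 369, 781 and 357 CPM in VAS + H2O, 131, 92.8 and 68.2 in IMQ + H2O, and 354, 224 and 222 in IMQ + XYF. The order of the libraries within IMQ + H2O, from replicate 1 as the highest to replicate 3 as the lowest, was that of Wif1, and VAS + H2O replicate 2 and IMQ + XYF replicate 1 were the highest of their groups for Wif1, Fzd9 and the cartilage sum alike. Other orders differed. Fzd9 had 5.36, 4.60 and 4.68 CPM in IMQ + H2O. In IMQ + XYF replicates 2 and 3, Wif1 had 85.0 and 105 CPM where the cartilage sums were nearly level. By edgeR all 11 cartilage genes tested were called lower in IMQ + H2O, with a median log2 fold change of -2.54, and 2 of 11 were called higher with XYF, with a median of 1.57, where DESeq2 called 11. Over all genes, edgeR called 4.04% lower and 3.64% higher in IMQ + H2O, and 0.0281% higher with XYF. DESeq2 called 0.738% of all genes higher with XYF. Dermal fibroblast genes had a median of 1.19 with XYF and summed to 213, 832 and 291 CPM, then 293, 360 and 281, then 549, 939 and 496, with Postn the most abundant, 0 of 13 at 0 in every library, and 3 of 12 called lower and 1 higher in IMQ + H2O. Their median in IMQ + H2O was -2.34, which the sums hide because Postn, with 0.72, made up most of them in that group, and with XYF edgeR called 0 and DESeq2 6. Whether cells under the epidermis had a part in the values of Wif1, Fzd9, Fzd4 and Notum was not tested. The skeletal muscle list, with Myh1 the most abundant, had medians of -3.82 in IMQ + H2O and 2.44 with XYF and 0 of 6 genes called in either comparison by edgeR, with 1 called higher with XYF by DESeq2, and IMQ + XYF replicate 2, its highest IMQ + XYF library, was the lowest of that group for Wif1 and Fzd9.

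**Figure D3:**
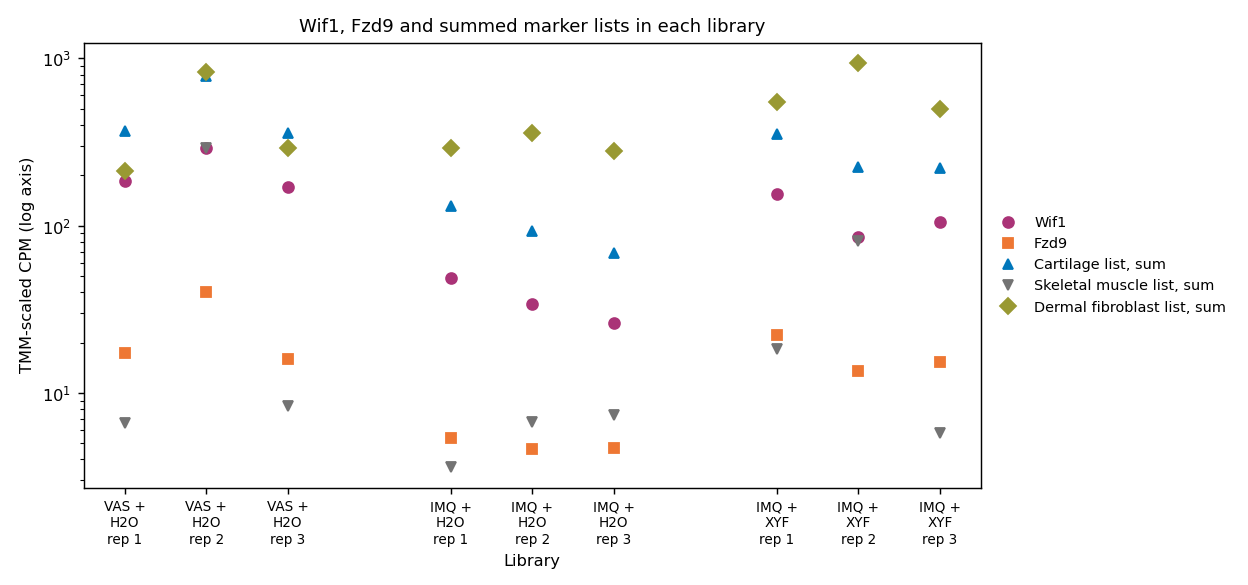
TMM-scaled CPM on a log axis (y) in each of the 9 libraries (x) for Wif1, Fzd9 and the summed genes of the cartilage, skeletal muscle and dermal fibroblast lists. Levels compare libraries within a series of points. VAS + H2O replicate 2 is the highest VAS + H2O library for all 5, and IMQ + H2O is the lowest group for Wif1, Fzd9 and the cartilage sum.

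Of the 15 keratinocyte genes, edgeR called 1 lower (4.04% of all genes) and 3 higher (3.64% of all genes) in IMQ + H2O, with a median log2 fold change of 0.18. The lower was Krt15, a keratin of basal and follicle cells named after its values were seen, with 2210, 1960 and 2680 CPM in VAS + H2O, 471, 712 and 430 in IMQ + H2O and 713, 583 and 684 in IMQ + XYF. Every control was above every imiquimod library. Its log2 fold changes against VAS + H2O were -2.10 (edgeR adjusted p = 0.00575) and -1.79 (edgeR adjusted p = 0.000789). Other basal genes of the list, also named after their values were seen, mostly did not follow. Krt14 was higher in both imiquimod groups, by 0.72 (edgeR adjusted p = 0.0227) and 0.76 (edgeR adjusted p = 0.00651). In IMQ + H2O, Krt5 (0.28), Trp63 (0.30), Itga6 (0.18) and Itgb4 (0.08) did not pass, and Col17a1 was lower (-0.42, edgeR adjusted p = 0.0375). Whether basal cells had a part in the lower Wnt values was not tested. Among the other cell types that a sheet can hold, the 5 T cell genes summed to 54.1, 52.2 and 46.6 CPM in VAS + H2O, 26.8, 36.1 and 32.9 in IMQ + H2O, and 37.0, 34.2 and 24.4 in IMQ + XYF, with Trdc the most abundant and 1 of 5 called lower in IMQ + H2O. Both imiquimod groups were below the controls in this sum, and whether these cells had a part in the Wnt values was not tested. Neutrophil genes went the other way, with Cxcr2 the most abundant, from 11.0, 10.7 and 12.7 CPM to 49.4, 51.7 and 135 in IMQ + H2O and 85.0, 62.5 and 62.7 in IMQ + XYF. Over the 9 libraries Cxcr2 averaged 42.9 CPM, so these sums rest largely on it, and 1 of the 4 genes was tested in IMQ + H2O. Langerhans and other myeloid genes summed to 65.3 to 88.8 CPM in IMQ + H2O and 76.6 to 80.9 in VAS + H2O. Sums for the sebaceous gland (185 to 380 CPM in VAS + H2O, 211 to 309 in IMQ + H2O), endothelial (10.8 to 16.8, and 6.81 to 10.9), melanocyte (17.2 to 39.4, and 14.0 to 25.7), Schwann cell (5.88 to 9.71, and 5.16 to 10.4) and adipocyte lists (0.614 to 1.73, and 1.25 to 1.78) overlapped between these groups. In the sebaceous list, edgeR called 1 of 6 higher and 1 lower in IMQ + H2O, with a median of 0. The endothelial sums met only at their ends, with a median log2 fold change of -0.84 and 1 of 8 called lower in IMQ + H2O, and the melanocyte list had a median of -0.71 with 0 of 5 called by edgeR. The place of both beside the lower Wnt genes was likewise not tested.

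TCF and LEF proteins bind DNA and carry the beta-catenin response. Of the 4 genes, 2 were called lower in IMQ + H2O, against 4.04% of all genes. Lef1 (ENSMUSG00000027985, chr3:131110471-131224356), a factor of hair follicle and dermal cells, had 2.39, 5.01 and 2.78 CPM in VAS + H2O, 1.17, 1.30 and 0.671 in IMQ + H2O, and 2.07, 1.60 and 1.25 in IMQ + XYF. The controls were above all other libraries, and the imiquimod groups overlapped. Its log2 fold change was -1.71 (standard error 0.39, edgeR adjusted p = 0.0262) in IMQ + H2O, and -1.31 (edgeR adjusted p = 0.0681) without VAS + H2O replicate 2, where the call ended, as it did without IMQ + H2O replicate 1 or 3. Tcf7l1 (ENSMUSG00000055799, chr6:72626378-72789254), known mainly as a repressor in skin stem cells, had 7.43, 8.71 and 4.76 CPM in VAS + H2O, 2.52, 3.67 and 4.17 in IMQ + H2O, and 6.03, 4.04 and 5.47 in IMQ + XYF. The highest IMQ + H2O library was near the lowest control and above 1 IMQ + XYF library. Its log2 fold change of -1.02 (standard error 0.29, edgeR adjusted p = 0.0478) lay at both cutoffs and lost the call under 8 of 13 alternatives, and was -0.82 (edgeR adjusted p = 0.135) without VAS + H2O replicate 2. With XYF the values were 0.67 (standard error 0.33, edgeR adjusted p = 0.991) for Lef1 and 0.59 (standard error 0.25, edgeR adjusted p = 0.908) for Tcf7l1. Tcf7 and Tcf7l2, the more abundant factors per kilobase, had 0.02 (edgeR adjusted p = 0.945) and -0.40 (edgeR adjusted p = 0.106) in IMQ + H2O.

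Axin2 and Nkd2 are feedback inhibitors inside the cell, and Axin2 is the usual readout of the beta-catenin response. Axin2 (ENSMUSG00000000142, chr11:108920349-108950783) had 77.4, 57.6 and 80.1 CPM in VAS + H2O, 46.4, 45.3 and 42.4 in IMQ + H2O, and 40.2, 45.9 and 51.2 in IMQ + XYF. All 6 imiquimod libraries were below the controls, and IMQ + H2O lay within the range of IMQ + XYF. The log2 fold changes were -0.69 (standard error 0.13, edgeR adjusted p = 0.0155) in IMQ + H2O and -0.65 (standard error 0.15, edgeR adjusted p = 0.0191) in IMQ + XYF against VAS + H2O, short of the fold cutoff, and 0.04 (standard error 0.10, edgeR adjusted p = 1) between the imiquimod groups. With 1 library left out the first missed the adjusted p in 2 of 6 fits and the second in 4. Nkd2 (ENSMUSG00000021567, chr13:73818534-73847631), which binds Dishevelled, fell further, from 61.0, 37.5 and 57.1 CPM to 16.7, 23.1 and 14.7 in IMQ + H2O and 15.3, 29.2 and 15.8 in IMQ + XYF. Its values were -1.53 (standard error 0.23, edgeR adjusted p = 0.0101) and -1.37 (standard error 0.30, edgeR adjusted p = 0.0164), with 0.15 (standard error 0.29, edgeR adjusted p = 1) between the imiquimod groups, which overlapped. For both genes VAS + H2O replicate 2 was the lowest control, unlike Wif1 and Fzd9, and without it the values in IMQ + H2O were -0.82 and -1.71. Between IMQ + XYF and VAS + H2O the call of Nkd2 was lost under 4 of 13 alternatives.

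A list of 70 other Wnt pathway genes, from ligand processing to nuclear co-factors, had 66 genes tested. In IMQ + H2O, 6 of the 66 (9.09%) were called lower by edgeR and 0 higher, against 4.04% of all genes lower and 7.68% in either direction. At an unadjusted p under 0.05, 20 were lower and 6 higher (18.7% and 19.2% of all genes), and DESeq2 called 6 lower (4.63% of all genes) and 0 higher. The median was -0.17. Apcdd1, a membrane inhibitor of Wnt signaling, had 73.2, 57.5 and 57.8 CPM in VAS + H2O, 22.9, 35.3 and 20.7 in IMQ + H2O and 30.7, 24.2 and 22.4 in IMQ + XYF, so that every control was above every imiquimod library. Its log2 fold changes against VAS + H2O were -1.27 (standard error 0.22, edgeR adjusted p = 0.0123) and -1.28 (standard error 0.15, edgeR adjusted p = 0.00217), and it was the 1 gene of the list called in IMQ + XYF against VAS + H2O, or 1.52% against 3.05% of all genes lower and 7.64% in either direction. The other 5 called in IMQ + H2O were Nkd1 (-2.24), the secreted Frizzled-related protein gene Frzb (-1.53), the Dishevelled-binding genes Cxxc5 (-1.43) and Dact1 (-1.35), and Dact3 (-1.01). Without VAS + H2O replicate 2, and likewise without IMQ + H2O replicate 1 or 3, 3 of the list were called, and without IMQ + H2O replicate 2 the count was 2. At an adjusted p of at most 0.05 alone, 16 were lower and 2 higher, Ctbp2 (0.69) and Csnk1a1 (0.27), both named after their values were seen. Over all genes these shares were 9.41% and 12.7%, and 22.1% passed in either direction against 27.3% of the list. With XYF against IMQ + H2O, edgeR called 0 of 66, with 6 higher and 3 lower at an unadjusted p under 0.05 (3.84% and 1.58% of all genes), and DESeq2 called 0. Ctnnb1, the gene of beta-catenin, also picked after its values were seen, had 465, 381 and 458 CPM in VAS + H2O, 444, 364 and 429 in IMQ + H2O and 488, 384 and 399 in IMQ + XYF, with overlapping groups and a log2 fold change of -0.09 (standard error 0.12, edgeR adjusted p = 0.611) in IMQ + H2O.

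The strand setting of the counting is not given in the sources used here, so reads of a gene and of an antisense partner could not be told apart. The labels call the libraries strand-specific, while the paper names a TruSeq kit without saying so, and neither tells how the counts were made. In GENCODE M21, 11 of the 55 genes share exon sequence with 12 annotated genes, all on the other strand. For Lef1 the partner had 0 to 27 counts per library, beside 29 to 165 for Lef1 itself, for Notum the partner Notumos had 1 to 40 beside 52 to 353, and for Wnt5a the partner had 26 to 74 beside 201 to 492. Partners had 15 to 132 counts for Wnt7b (beside 2744 to 6036), 2 to 31 for Axin2 (beside 1344 to 3659), 0 to 2 for Tcf7l1 and 0 in every library for Rspo3. Wif1, Fzd9, Nkd2, Lgr6 and Wnt3 share no exon sequence with another annotated gene.

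Promoter sequences, from 250 bases before to 50 after an annotated start, were held in RefSeq (GRCm38.p6) for 36 of the 55 genes and 8 of the 10 called, which do not include Notum or Rspo3. The 44 promoters of the 36 genes had a median GC content of 67.3% and a median of 25.5 CG pairs, against 52.7% and 7 over all 32851 promoters. They were searched on both strands for the TCF/LEF letters CTTTGAT and CTTTGAA, which differ in the last letter only. Of the 44, 3 held a match (6.82%), in Dkk1, Wnt11 and Wnt5b, against 8.65% of all promoters of this length, and 1 of the 13 promoters of called genes did. A match is a description of these letters, and its absence says only that they are not in this window. The following are, 5′ to 3′ on the gene's own strand with the match in capitals, the promoters of Wif1 (chr10:121033754-121034053, plus strand) and Fzd9 (chr5:135250998-135251297, minus strand), the pair that DESeq2 called between the imiquimod groups, of Axin2 (chr11:108920099-108920398, plus strand), the feedback gene, and of Wnt5b (chr6:119449337-119449636, minus strand), 1 of its 3 promoters and the only one among called genes with a match, 71 bases before a start that lies inside the gene.
Wif1: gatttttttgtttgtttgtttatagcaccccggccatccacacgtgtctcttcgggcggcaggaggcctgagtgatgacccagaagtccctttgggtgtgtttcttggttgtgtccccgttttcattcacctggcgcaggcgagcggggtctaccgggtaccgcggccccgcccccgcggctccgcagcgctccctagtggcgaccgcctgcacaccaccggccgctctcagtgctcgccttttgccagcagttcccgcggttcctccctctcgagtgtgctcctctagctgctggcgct
Fzd9: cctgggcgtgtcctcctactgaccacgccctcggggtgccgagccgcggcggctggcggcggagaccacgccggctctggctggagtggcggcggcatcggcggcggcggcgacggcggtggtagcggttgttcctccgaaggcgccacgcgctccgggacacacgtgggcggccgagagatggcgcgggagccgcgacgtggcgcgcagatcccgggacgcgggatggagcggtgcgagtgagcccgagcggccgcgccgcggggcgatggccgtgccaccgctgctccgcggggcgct
Axin2: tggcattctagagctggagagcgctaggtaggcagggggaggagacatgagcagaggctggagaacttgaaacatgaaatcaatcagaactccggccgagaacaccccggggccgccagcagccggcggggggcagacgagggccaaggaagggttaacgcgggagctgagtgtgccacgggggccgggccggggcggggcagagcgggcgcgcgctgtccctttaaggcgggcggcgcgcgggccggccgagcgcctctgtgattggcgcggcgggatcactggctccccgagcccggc
Wnt5b: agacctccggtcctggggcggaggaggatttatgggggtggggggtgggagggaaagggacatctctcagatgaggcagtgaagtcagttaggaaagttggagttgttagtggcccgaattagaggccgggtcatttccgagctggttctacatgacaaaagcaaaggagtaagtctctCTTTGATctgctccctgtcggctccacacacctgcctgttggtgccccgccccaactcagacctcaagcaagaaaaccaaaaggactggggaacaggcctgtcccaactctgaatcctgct
The GC content of these windows was 63.0% for Wif1, 78.0% for Fzd9, 70.0% for Axin2 and 55.0% for Wnt5b, with 25, 53, 31 and 7 CG pairs.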

How the data were processed

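The analysis covers 9 epidermal libraries, assigned by label to VAS + H2O, IMQ + H2O or IMQ + XYF (3 each). The study's methods state that the mice were male and that RNA came from the ears of a pair of mice, which may or may not refer to 1 library. The paper's figure legends for the sequencing give n = 3 for each group. Whether each library came from separate animals is not stated, so p-values measure the spread between these libraries. The authors prepared TruSeq libraries, aligned reads with STAR (2.5 in the submitters' processing notes) to GRCm38, and used StringTie with genes from Ensembl release 90. The submitters' notes also list FastQC, Cuffnorm and DESeq 1.22.1. The authors deposited whole-number counts per gene and library without normalization. The counting tool is not given in the sources used here, and whether the counts are rounded estimates could not be checked.

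Calculations used R 4.3.3, edgeR 4.0.16 and DESeq2 1.42.0. For each comparison a separate edgeR quasi-likelihood model used only the 6 libraries involved, after TMM scaling and filterByExpr, with Benjamini-Hochberg adjustment of p across every gene tested. To be called, a gene needed adjusted p ≤ 0.05 together with |log2 fold change| ≥ 1. Standard errors were derived from the test statistic. CPM used TMM factors (0.956 to 1.06) from a filter run on the 9 libraries jointly, and CPM per kb the union exon length in GENCODE M21. Between libraries of a group, the chi-square for each gene averaged 23.8 to 75.0, so they differed by more than counting noise. The fits were tested on simulated data.

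Genes named one by one had an adjusted p of at most 0.05 in any comparison, an unadjusted p under 0.05 between the imiquimod groups, or one of the 2 highest levels per kilobase in their role. Wif1 and Fzd9 were added because the paper lists them under Wnt signaling among its epidermal genes. Up to 10 called genes of the other pathway list, and the most abundant gene and genes at 0 in each marker list, were added too. The Wnt genes and the lists were chosen with earlier results of these data known. Alternatives were DESeq2, RLE scaling, dropping the filter, requiring 10 counts per library, a joint fit of all 9, a block for replicate number, the adjusted p alone, and leaving out each library in turn. The dermal libraries were not analysed here.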

Additional observations from a re-analysis of the deposited data

How the results depend on the processing

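Counts of called genes moved with the limit on the fold change and with the libraries used. In IMQ + H2O against VAS + H2O the count of Wnt genes, 10, ranged from 5 to 11 with 1 library left out and from 9 to 14 under the other alternatives, and no alternative called a gene higher. Wif1, Fzd9, Rspo3, Nkd2 and Notum kept their calls in all 13 alternatives, while Lef1 and Wnt3 each lost theirs in 3, Wnt5b in 5, Tcf7l1 in 8 and Lgr6 in 1. For the other pathway genes the count of 6 became 18 on the adjusted p alone and 2 to 5 with 1 library left out. In IMQ + XYF against IMQ + H2O, the count of 0 Wnt genes became 2 with DESeq2, and stayed between 2 and 3 by DESeq2 with 1 library left out, an alternative chosen after seeing the data. In IMQ + XYF against VAS + H2O the counts of 3 and 1 became 10 of 41 (24.4%) and 17 of 66 (25.8%) on the adjusted p alone, where 28.7% of all genes passed, and the first ranged from 1 to 4 with 1 library left out.

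Deviations from the group means correlated by -0.167 to 0.151 between libraries of the same replicate number. Libraries of different numbers were not compared in this way, so these values cannot decide whether the numbers pair the libraries. With the replicate number as a block, Wnt genes called were 9, 0 and 2 in the 3 comparisons, and other pathway genes 4, 0 and 1.

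Signs reversed only for changes that did not pass the test, each with 1 library left out, and the cause was not tested beyond that. In IMQ + H2O against VAS + H2O these were Wnt4 (-0.01, at most 0.09), Sfrp1 (-0.02 and -0.04, at most 0.19) and Tcf7 (-0.08 and -0.03, at most 0.14). In IMQ + XYF against IMQ + H2O they were Wnt7b (-0.13), Wnt5b (0.08 and 0.13, at least -0.12), Lrp5 (0.00 and 0.05, at least -0.10), Lgr4 (0.03 and 0.03, at least -0.06), Sfrp1 (-0.02 and -0.04, at most 0.21), Axin2 (-0.01 and -0.05, at most 0.12) and Nkd2 (-0.22, at most 0.36). In IMQ + XYF against VAS + H2O they were Fzd6 (0.01 and 0.05), Fzd9 (0.03, at least -0.75), Fzd4 (0.28, at least -1.04) and Lrp6 (0.00, at least -0.14). Scaling by RLE moved the median of all genes by less than 0.1 on the log2 scale. Depth limits the genes under about 1 CPM, where few counts stand behind a library.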
